A study of Saccharomyces cerevisiae with 12 samples.

Results

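The comparison set a regular S phase against replication that was started inside a G1 arrest. It used 8 of the 12 mRNA libraries of the series: 4 of wild-type S cells and 4 of CDK/DDK bypass G1 cells, chosen by the names of their count tables, with 6412 genes and other features in each. All cells were budding yeast of the W303 background, grown in raffinose medium and first held in G1 with α-factor for 2.5 h. Wild-type S cells (strain E3087) were then washed and released into fresh medium for 30 min. Bypass cells (strain YKR1503) stayed in the arrest while galactose was added for 3 h, which induced Dbf4, Dpb11 and the sld2-T84D allele from galactose promoters. A further 4 libraries of wild-type G1 cells (strain YKR1500), arrested and given galactose for 3 h like the bypass cells, are quoted beside them. No time in galactose is given for the S cells. Every group was its own strain. The strain, the hours spent in pheromone, the release, any difference in sugar and the way replication began therefore cannot be told apart in this comparison. The labels do not say that replicates of a group were separate cultures, so p-values measure the spread between these libraries only.

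Budding yeast commit to division late in G1, when the Cln-CDK kinase turns on the transcription factors SBF and MBF and with them genes for cyclins, DNA synthesis and cohesion. S phase CDK and the Dbf4-dependent kinase DDK then activate the MCM helicase that was loaded on origins earlier in G1. Mating pheromone from cells of the opposite mating type acts through the receptor Ste2, a MAP kinase cascade and the transcription factor Ste12, and blocks Cln-CDK through Far1. In the bypass cells an Sld2 mutant that mimics CDK phosphorylation, together with high Dpb11 and Dbf4, allows origins to fire without these kinases being turned on by the cell cycle.

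The regulatory sequences that recur below are those of MBF and of Ste12. Each line gives the 250 bases that end 50 bases before the start codon, read from RefSeq's R64 assembly (sacCer3), in the direction of the gene. POL1, CDC21 and TOF1, for DNA polymerase α, thymidylate synthase and a fork protection factor, are shown because they had the most copies of the MluI cell cycle box (MCB, ACGCGT), the core of MBF sites, among the replication genes at least 2-fold higher in S, ties going to the larger fold. PRM1, FUS1 and FUS2, mating genes, had the most copies of the pheromone response element (PRE, TGAAACA on either strand), the core of Ste12 sites, among the mating genes at least 2-fold lower, by the same rule. Capitals mark the motif.
POL1 (chr14:429787-430036, + strand): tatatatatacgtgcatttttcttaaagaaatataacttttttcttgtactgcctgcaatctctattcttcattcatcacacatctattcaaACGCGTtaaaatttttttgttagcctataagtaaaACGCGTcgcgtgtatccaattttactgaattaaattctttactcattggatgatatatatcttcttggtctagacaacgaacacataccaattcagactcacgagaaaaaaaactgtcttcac
CDC21 (chr15:467640-467889, - strand): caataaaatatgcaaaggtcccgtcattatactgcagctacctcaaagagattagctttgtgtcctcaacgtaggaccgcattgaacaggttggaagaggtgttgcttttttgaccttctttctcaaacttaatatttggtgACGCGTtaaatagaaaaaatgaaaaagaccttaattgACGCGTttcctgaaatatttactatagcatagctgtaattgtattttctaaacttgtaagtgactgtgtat
TOF1 (chr14:122583-122832, + strand): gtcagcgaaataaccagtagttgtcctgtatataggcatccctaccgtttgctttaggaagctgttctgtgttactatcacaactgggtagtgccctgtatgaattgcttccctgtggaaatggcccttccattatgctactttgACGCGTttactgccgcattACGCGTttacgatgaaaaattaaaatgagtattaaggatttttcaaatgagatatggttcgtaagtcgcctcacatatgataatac
PRM1 (chr14:110617-110866, + strand): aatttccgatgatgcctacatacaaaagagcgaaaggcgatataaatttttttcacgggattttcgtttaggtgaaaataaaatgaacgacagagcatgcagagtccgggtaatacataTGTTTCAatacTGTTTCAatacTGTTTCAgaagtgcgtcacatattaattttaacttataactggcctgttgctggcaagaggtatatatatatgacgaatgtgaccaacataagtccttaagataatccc
FUS1 (chr3:71503-71752, + strand): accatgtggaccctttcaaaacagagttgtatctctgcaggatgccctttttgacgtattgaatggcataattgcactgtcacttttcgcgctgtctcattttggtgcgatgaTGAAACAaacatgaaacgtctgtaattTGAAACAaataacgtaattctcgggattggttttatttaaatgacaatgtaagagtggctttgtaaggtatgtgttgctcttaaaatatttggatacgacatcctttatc
FUS2 (chr13:736626-736875, + strand): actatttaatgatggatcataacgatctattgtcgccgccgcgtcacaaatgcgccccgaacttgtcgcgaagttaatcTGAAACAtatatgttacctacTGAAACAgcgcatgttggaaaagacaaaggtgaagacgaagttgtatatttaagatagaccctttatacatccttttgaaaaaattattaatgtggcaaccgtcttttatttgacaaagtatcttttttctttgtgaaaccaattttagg

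Libraries held 8162140 to 10545835 counts on genes, and 5662 features passed the filter on low counts. S and bypass libraries had similar shares of spike-in reads (2.06% ± 0.19 of gene counts in S and 1.93% ± 0.10 in bypass, SD, n = 4 each, exact permutation test, two-sided, p = 0.314). Reads outside any feature on the counted strand were fewer in S, at 3.92% ± 0.10 of gene counts against 6.22% ± 0.14 in bypass (exact p = 0.0286, the smallest that 4 against 4 allow), and were 5.57% to 5.93% in wild-type G1. In both groups replicates 1 and 2 formed a pair of similar libraries, and so did replicates 3 and 4. The chi-square of their counts, divided by the number of genes, was 1.48 to 2.22 inside a pair. Across pairs it was 3.02 to 3.49 for bypass and 7.33 to 7.96 for S. Libraries of a pair may not be independent, while the main test treats all 4 of a group as such. Values are given in TPM, a level scaled for gene length and for the library total,, and fold changes come from the fit on TMM-scaled counts, so that the ratio of TPM means can differ a little from the fold. Background shares refer to all 5662 features tested.

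The induced genes came first as a check of the labels. SLD2 (YKL108W), the origin firing factor that CDK phosphorylates, measured 2680.1, 2726, 2343 and 2575 TPM in the bypass libraries and 33.8, 33.5, 43.0 and 41.9 TPM in S, 60.6-fold lower in S (log2 fold change -5.92 ± 0.10, SE, edgeR adjusted p = 2.05e-14). DPB11 (YJL090C), whose protein bridges the helicase activators, measured 1037, 1067, 959.7 and 996 TPM against 18.2, 19.9, 22.0 and 20.6 TPM in S. DBF4 (YDR052C), the regulatory subunit of DDK, measured 454, 466, 411 and 431 TPM against 55.1, 53.6, 59.0 and 59.7 TPM. The groups did not overlap for any of the 3, nor for 81.7% of all features. The counts do not separate the induced copy from the chromosomal one. The galactose regulon itself was on in all groups: GAL1, galactokinase, measured 5523 to 5875 TPM in S, 6889 to 7037 TPM in bypass and 5487 to 6425 TPM in wild-type G1. The level in S stands although no galactose step is given for those cells, and the sugar they received was not tested. Among 13 galactose genes 5 were higher in S, 5 were lower and 3 did not pass the threshold (median log2 fold change -0.08). Of all features 41.5% were higher and 43.6% lower.

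Across all features 4818 (85.1%) differed between S and bypass at an adjusted p below 0.1. Of the features tested, 2349 (41.5%) were higher in S and 2469 (43.6%) lower. Counts of genes by list are to be read against these shares. The groups did not overlap in normalised counts for 4624 features (81.7%), so a called gene is the usual case here and sizes carry more than calls. Changes of at least 2-fold were found in 530 features higher in S (9.36%) and 802 lower (14.2%), and of at least 4-fold in 76 and 265. Beyond a log2 fold change of 4 the counts were 13 and 50. Genes at least 2-fold higher made up 27.4% ± 0.218 of all TPM in S and 11.1% ± 0.0625 in bypass (SD, n = 4 each), and those at least 2-fold lower 3.91% ± 0.189 and 20.2% ± 0.197.

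The largest rises in S were genes of the G1/S program. TOS6 (chr14:65744-66052), a predicted cell wall glycoprotein and a target of SBF, measured 1461, 1376, 1831 and 1886 TPM in S and 3.18 to 4.74 TPM in bypass, 449-fold apart (log2 fold change 8.81 ± 0.15, adjusted p = 2.16e-14). PCL1 (chr14:87897-88736), a cyclin of the kinase Pho85, measured 340.4, 337, 419 and 429 TPM in S and 0.83, 1.22, 1.37 and 0.702 TPM in bypass (412-fold). CLB6, an S phase cyclin, measured 17.5, 17.1, 27.7 and 25.4 TPM against 0.349, 0.0998, 0.0915 and 0.344 TPM. S replicates 3 and 4 were the higher libraries for all 3 genes, while every bypass library lay at a trace level, as did wild-type G1, with 1.64 ± 0.56, 1.47 ± 0.48 and 0.362 ± 0.277 TPM. CLN1, a G1 cyclin, averaged 211 ± 24.2 TPM in S and 5.64 ± 1.38 TPM in bypass (41.5-fold). CLN2, its close relative, differed less, with 167, 169.8, 201 and 201 TPM in S against 24.8, 29.1, 26.1 and 27.3 TPM in bypass (7.70-fold), and CLB5, the main S phase cyclin, less again, with 45.1 to 55.2 TPM against 15.3 to 16.9 TPM (3.55-fold). Of the 7 G1 and S phase cyclins 5 were higher in S and 2 lower. The lower ones were CLN3, the most upstream G1 cyclin, at 51.1 ± 3.86 TPM in S and 169.7 ± 8.14 TPM in bypass, and PCL2, another Pho85 cyclin, at 45.7, 47.1, 71.6 and 67.6 TPM against 1371, 1398, 1319.8 and 1339 TPM (20.9-fold lower).

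The regulators around SBF and MBF also had members on both sides. Of 12 listed, 9 were higher in S, 1 was lower and 2 did not pass the threshold, with a median log2 fold change of 1.57 against -0.02 over all features (-0.16 with spike-in scaling). YOX1, a repressor of early cell cycle promoters, measured 157, 161, 211 and 192 TPM in S and 1.58 to 3.14 TPM in bypass (87.8-fold). NRM1, the corepressor that shuts MBF off in S phase, measured 154 to 184 TPM against 9.12 to 10.7 TPM (19.1-fold), and TOS4, a forkhead-domain protein, 154 ± 16.4 TPM against 9.40 ± 0.515 TPM (18.3-fold). The DNA-binding subunit SWI4 of SBF was 1.55-fold higher. MBP1, which binds DNA in MBF, had a log2 fold change of 0.03 ± 0.05 (adjusted p = 0.545), and SWI6, shared by both factors, of -0.01 ± 0.04 (adjusted p = 0.878), and the sign of both depended on the scaling. SRL3, related to the SBF inhibitor Whi5, went the other way, at 20.8 to 26.8 TPM in S and 259 to 265 TPM in bypass (9.69-fold lower). The DNA-binding and shared subunits thus differed less between S and bypass than YOX1, NRM1 or TOS4.

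All 8 canonical histone genes were higher in S. Their summed level was 29660 to 30527 TPM in S and 6659 to 6864.6 TPM in bypass, 4.43-fold apart (log2 difference 2.15, exact permutation test on 4 against 4 libraries, two-sided, p = 0.0286, the smallest possible), and 3436.9 to 3750.7 TPM in wild-type G1. The 8 genes were not alike. HTB2 (YBL002W, chr2:236492-236887), for H2B, measured 2996, 3014, 3161 and 2934 TPM in S and 64.9, 62.2, 79.0 and 64.8 TPM in bypass (49.9-fold, log2 fold change 5.64 ± 0.10, adjusted p = 2.16e-14). HTA2 (YBL003C, chr2:235394-235792), for H2A and its divergent neighbour on chromosome 2, measured 2858 to 3018 TPM against 108 to 131 TPM (27.8-fold). HTA1 (YDR225W) and HTB1 (YDR224C), the other H2A and H2B pair on chromosome 4, were 2.60-fold and 4.96-fold higher, from 1684 ± 58.3 and 1196 ± 26.1 TPM in bypass. For the H3 and H4 genes the folds were 2.63 for HHT1, 4.48 for HHT2, 4.90 for HHF1 and 7.23 for HHF2. In the same fit all 8 genes were also higher in bypass than in wild-type G1, as were 26.0% of all features. There the log2 fold change was largest at HHF1 (1.73), HTA2 (1.58), HTB1 (1.36) and HTA1 (1.18), and smallest at HHF2 (0.22), with HHT1 (0.53), HTB2 (0.48) and HHT2 (0.34) between. Bypass thus lay between wild-type G1 and S in each of the 8 genes.

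**Figure D1:**
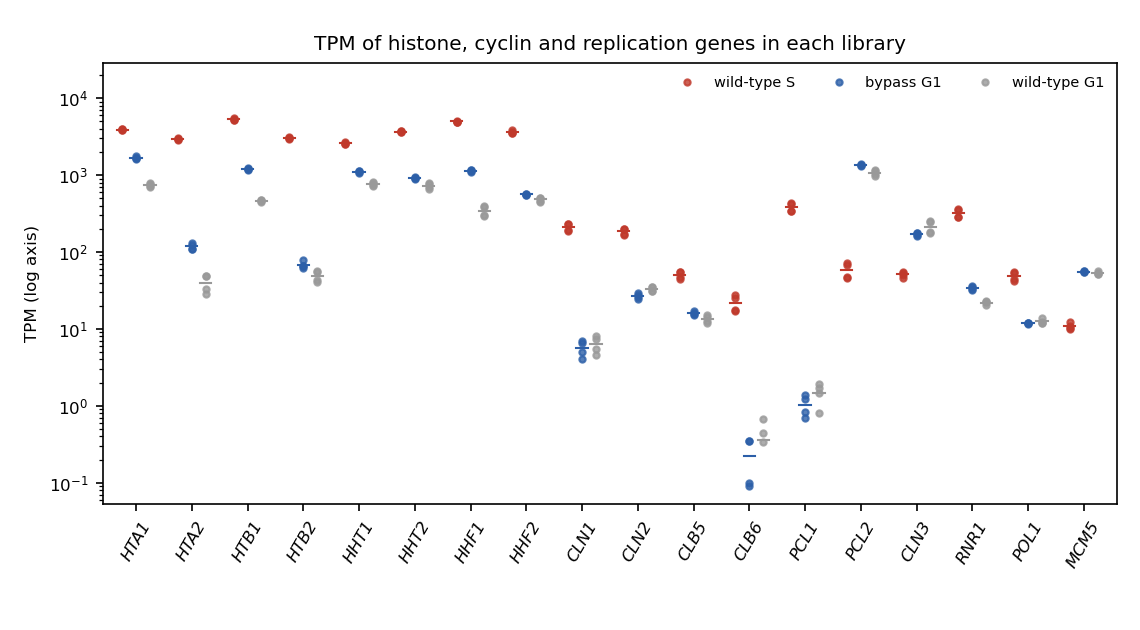
TPM (log axis) of histone, cyclin and replication genes in each library of wild-type S (red), bypass G1 (blue) and wild-type G1 (grey), with points for libraries and a line for the mean of 4. Histone genes sit between 2514 and 5516 TPM in S and between 62.2 and 1768 TPM in bypass, PCL2, CLN3 and MCM5 run the opposite way to the other genes, and a value of 0 is not drawn.

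Beyond the canonical genes, 10 of 12 histone variants and regulators were higher in S and 2 lower. HHO1, the linker histone, measured 489 to 500.4 TPM in S and 148 to 163 TPM in bypass (3.57-fold). HTZ1, the H2A variant, was 2.75-fold higher, and SPT21, needed for histone gene transcription, measured 22.3, 18.9, 28.5 and 28.5 TPM against 9.41, 9.71, 9.64 and 10.9 TPM (2.77-fold). SPT10, its partner at histone promoters, was lower by a log2 fold change of -0.19. Of 11 chaperones that handle histones 9 were higher and 1 lower, with a median of 0.35 and the highest value for CAC2, a subunit of chromatin assembly factor, at 1.04.

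Origin licensing genes were found on both sides. The 6 genes of the MCM helicase ring were all lower in S. MCM5 measured 10.0, 10.2, 10.8 and 12.4 TPM in S and 55.4, 55.5, 55.8 and 55.9 TPM in bypass (4.58-fold lower, log2 fold change -2.19 ± 0.06, adjusted p = 2.63e-12). MCM7 was 3.83-fold, MCM3 3.63-fold, MCM4 2.62-fold and MCM2 2.59-fold lower, and MCM6 had a log2 fold change of -0.59. No S library reached the bypass range in any of the MCM genes, where 81.7% of all features did not overlap between the groups. Between bypass and wild-type G1 their log2 fold changes were -0.11 to 0.21. CDC6, the loader of the helicase, was higher instead, at 8.95 to 10.4 TPM in S and 3.40 to 5.29 TPM in bypass (2.51-fold), and so was ORC1, the largest subunit of the origin recognition complex, at 39.6 to 44.2 TPM against 18.4 to 19.4 TPM (2.48-fold). Counting all 14 licensing genes, 4 were higher, 9 lower and 1 not past the threshold.

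Among 12 origin firing factors 4 were higher in S and 5 lower, 3 of the latter being the induced SLD2, DPB11 and DBF4. Of all features 41.5% were higher and 43.6% lower. CDC45, which completes the active helicase, measured 38.0, 36.7, 45.6 and 49.4 TPM in S against 19.8 to 21.4 TPM in bypass (2.31-fold). The GINS subunits PSF3, SLD5 and PSF2 were higher by log2 fold changes of 0.67, 0.56 and 0.49, while the remaining subunit PSF1 did not pass the threshold (-0.05, adjusted p = 0.651). CDC7, the catalytic subunit of DDK, was 1.34-fold lower in S, at 22.7 to 26.5 TPM against 35.7 to 37.7 TPM, and was also higher in bypass than in wild-type G1 (log2 fold change 0.46, adjusted p = 3.4e-05). SLD3, the DDK target that recruits Cdc45, measured 21.5 ± 1.58 TPM in S and 25.1 ± 0.71 TPM in bypass and did not pass the threshold (log2 fold change -0.06, adjusted p = 0.371).

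Genes of the replication fork were mostly higher in S. Of 11 genes for polymerases and primase 10 were higher, none was lower and PRI1, a primase subunit, did not pass the threshold, and with spike-in scaling 8 were higher. POL1, the catalytic subunit of polymerase α, measured 41.8, 44.4, 53.9 and 55.2 TPM in S and 11.6 to 12 TPM in bypass (4.61-fold, adjusted p = 2.95e-11). POL2, that of polymerase ε, measured 27.5 to 31.3 TPM against 8.25 to 9.07 TPM (3.80-fold), and POL3, that of polymerase δ, had a log2 fold change of 0.74. Of 24 fork factors 21 were higher and 2 lower (19 and 3 with spike-in scaling). The largest values were those of TOF1, of the fork protection complex, with 19.2 to 23.2 TPM in S against 6.23 to 7.18 TPM (3.56-fold), RNH201, a subunit of RNase H2, with a log2 fold change of 1.77, RFC5 of the clamp loader (3.04-fold) and RFA3 of the single-strand binding protein RPA (2.90-fold). POL30, the sliding clamp PCNA, differed by 1.41-fold only, at 462 ± 58.2 TPM in S against 366 ± 26 TPM in bypass, and was also higher in bypass than in wild-type G1 (208 ± 20.4 TPM, log2 fold change 0.81). The lower ones were DNA2, the helicase and nuclease of Okazaki fragment maturation (1.65-fold), and TOP1, topoisomerase I (1.44-fold).

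**Figure D2:**
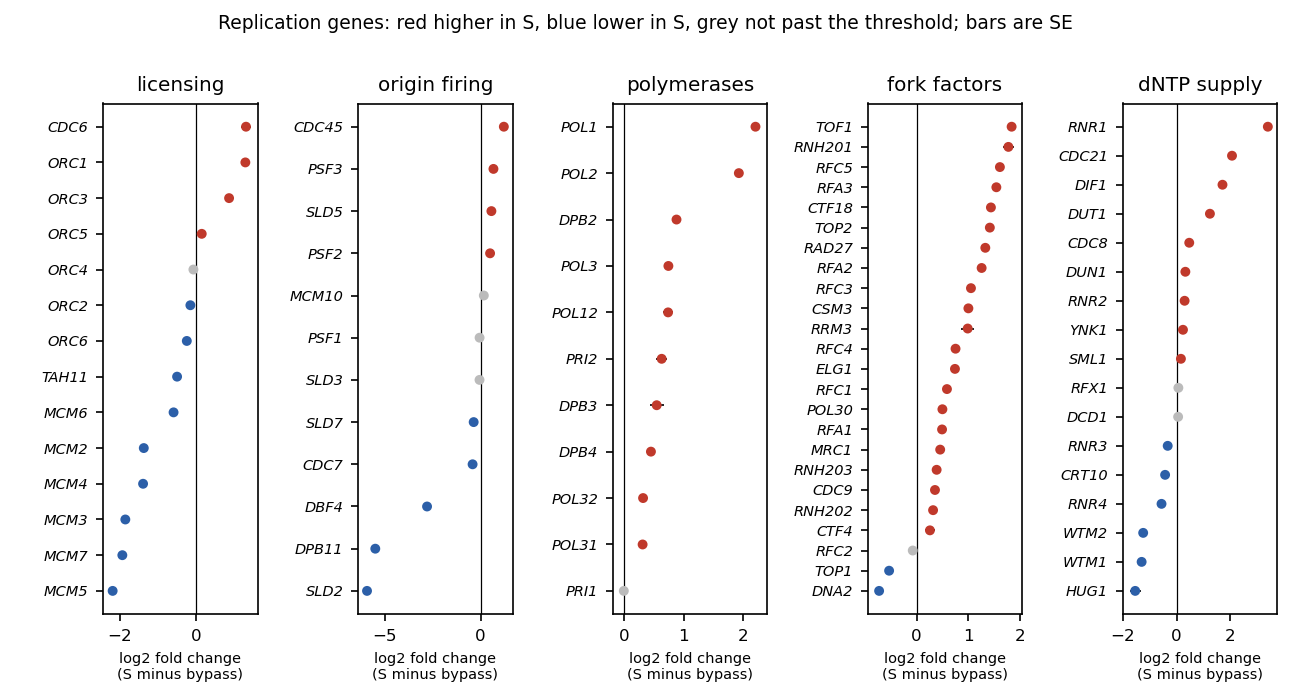
Log2 fold change (wild-type S minus bypass G1, with its SE as a bar) of each gene of 5 replication lists, red when higher in S, blue when lower and grey when not past the threshold. The 6 MCM genes lie at -0.59 to -2.19, POL1 at 2.21 and RNR1 at 3.41, and the induced DBF4, DPB11 and SLD2 lie at -2.79, -5.49 and -5.92.

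The supply of deoxynucleotides was divided by subunit. RNR1, the large subunit of ribonucleotide reductase, measured 281, 287, 361 and 351 TPM in S and 31.6, 32.7, 34.6 and 35.6 TPM in bypass (10.6-fold, adjusted p = 5.05e-13). CDC21, thymidylate synthase, measured 155, 156, 195 and 191 TPM against 44.6 to 48.3 TPM (4.21-fold). RNR2, a small subunit, differed by 1.23-fold, whereas RNR4, the other small subunit, was 1.48-fold lower in S, at 429.9 to 453 TPM against 694 to 781 TPM. HUG1, an inhibitor of the reductase that is induced by DNA damage, measured 9.58, 11.3, 6.12 and 10.9 TPM in S and 28.9, 27.5, 34.4 and 32.8 TPM in bypass (2.92-fold lower). These low counts separated the groups, as did those of 81.7% of all features. The bypass level of HUG1 also exceeded the 4.90 ± 2.04 TPM of wild-type G1 (log2 fold change 2.64, adjusted p = 3.3e-06). RNR3, the damage-inducible large subunit, was near 4.05 ± 0.281 TPM in S and 5.71 ± 0.561 TPM in bypass (1.26-fold lower), against 2.94 ± 0.73 TPM in wild-type G1.

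Repair by homologous recombination had 6 of 15 genes higher in S, 7 lower and 2 not past the threshold, with a median log2 fold change of -0.06. These counts are near the shares of all features (41.5% higher and 43.6% lower). RAD52, a mediator of strand annealing, measured 70.7 to 72.4 TPM in S and 124 to 129 TPM in bypass (1.57-fold lower), and RAD54, a DNA translocase, 22.4 to 26.4 TPM against 37.9 to 39.6 TPM (1.44-fold lower). The groups did not overlap in either gene, nor in 81.7% of all features. Bypass exceeded wild-type G1 by log2 fold changes of 0.46 and 0.51 in the same genes, while between S and wild-type G1 they were -0.19 and -0.02. SAE2, which starts the processing of DNA ends, was 2.50-fold higher in S. Of 12 checkpoint genes 8 were higher in S and 3 lower. The lower ones were the induced DPB11 as well as MEC1 (log2 fold change -0.44) and TEL1 (-0.15). The higher ones included RAD53, the effector kinase, at 16.9, 17.3, 21.8 and 22.1 TPM in S against 8.69 to 12 TPM in bypass (2.09-fold).

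Cohesion and mitotic genes were mostly higher in S. MCD1, the kleisin subunit of cohesin, measured 112, 106, 144 and 150.1 TPM in S and 7.24 to 8.84 TPM in bypass (18.2-fold). PDS5, a cohesin regulator, was 4.33-fold higher, and 8 of 12 cohesin genes were higher with 2 lower. Of 19 genes of the mitotic CLB2 cluster 12 were higher and 5 lower. CLB1, a mitotic cyclin, measured 73.8, 73.9, 41.9 and 37.4 TPM in S and 1.20 to 1.85 TPM in bypass (38.2-fold), and SWI5, a transcription factor of late mitosis, 24.4, 24.2, 15.0 and 13.1 TPM against 2.21 to 2.54 TPM (8.97-fold). In these S replicates 1 and 2 were the higher libraries, the reverse of PCL1, CLB6 and RNR1. CLB2, the main mitotic cyclin, differed by 1.95-fold. CDC20, the activator of the anaphase-promoting complex, was lower in S, at 5.07 to 7.17 TPM against 38.1 to 40.2 TPM (5.94-fold). Of 24 spindle pole body and motor genes 19 were higher in S and 3 lower, the last including KAR3, a kinesin that also acts in nuclear fusion (5.22-fold), and CIK1, its partner, at 29.9 to 34.0 TPM against 663 to 697 TPM (19.0-fold).

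Bud and wall genes also had members in both directions. Of 24 septin and polarity genes 17 were higher in S and 4 lower. GIC1, an effector of Cdc42, measured 28.9 to 39.6 TPM in S and 2.43 to 2.81 TPM in bypass (14.5-fold), while its paralogue GIC2 measured 75.8 to 105 TPM against 428 to 488 TPM (4.53-fold lower). Of 30 cell wall genes 18 were higher and 10 lower. MNN1, a mannosyltransferase, was 8.08-fold higher and SCW4, a wall glucanase, 5.20-fold higher, whereas CHS1, a chitin synthase, was 12.5-fold lower. The M/G1 and daughter-cell list had 1 of 14 genes higher and 9 lower, with PST1, a wall protein, at 14.8-fold and SCW11, a glucanase, at 12.8-fold.

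Mating genes were among those lower in S by the largest folds. Of 19 genes for agglutination, fusion and other mating steps all were lower, 18 of them at least 2-fold, with a median log2 fold change of -5.89. FUS1 (YCL027W), a membrane protein of cell fusion, measured 9.70, 9.83, 15.1 and 13.7 TPM in S and 1333, 1338, 1265 and 1303 TPM in bypass (96.4-fold lower, log2 fold change -6.59 ± 0.12, adjusted p = 3.18e-14). FIG1, a membrane protein of mating, measured 18.5, 22.1, 34.1 and 35.2 TPM against 2954 to 3064 TPM (97.5-fold), and AGA1, the anchor of agglutinin, 30.8 to 51.5 TPM against 3389 to 3615 TPM (76.3-fold). PRM6, a potassium channel subunit known by its pheromone regulation, showed the largest fold of the list, 3.32 to 7.41 TPM against 793 to 848 TPM (141-fold). FUS2, of cell fusion, and PRM1, of membrane fusion, were 80.2-fold and 59.2-fold lower. Between bypass and wild-type G1 the list median was 0.06, but 11 of the 19 genes passed the threshold (54.5% of all features did), 6 of them higher in bypass and 5 lower. AGA2, the binding subunit of agglutinin, was lower in bypass by a log2 fold change of -0.72, and FUS1 was higher by 0.36. The labels give continued α-factor for both arrested groups and release for S. In S against bypass alone, pheromone and replication cannot be told apart. Wild-type G1, arrested without the bypass, had FUS1 at 1021 ± 22.2 TPM and AGA1 at 3499 ± 42.7 TPM. The source of the differences from S was not tested.

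Of 18 pathway genes none was higher in S and 16 were lower, with a median log2 fold change of -1.77. STE2, the receptor, measured 41.2, 44.5, 58.8 and 57.1 TPM in S and 2739 to 2825 TPM in bypass (49.2-fold), and GPA1, the G protein α subunit, 21.7 to 29.1 TPM against 427 to 454 TPM (15.9-fold). FUS3, the MAP kinase, was 12.5-fold lower, STE12, the transcription factor, 5.53-fold, and KAR4, its partner in the late response, 31.7-fold. SST2, a negative regulator that turns the G protein off, was 14.4-fold lower as well. FAR1, through which the pathway inhibits Cln-CDK, measured 17.6, 17.8, 18.6 and 18.1 TPM in S against 492 to 544 TPM in bypass (25.5-fold lower). The kinases STE20 and STE7 did not pass the threshold, with log2 fold changes of 0.05 and -0.08.

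Of 12 genes listed for a-factor production or as specific to a cells 9 were lower in S and 2 higher. The list includes processing enzymes such as RAM1, RCE1, STE14 and STE24. MFA2, a gene for a-factor, measured 266, 271, 438 and 416 TPM in S and 15266 to 16019 TPM in bypass (40.1-fold lower), and MFA1, the other, 319 to 588 TPM against 8409 to 9263 TPM (17.3-fold). STE6, the a-factor exporter, was 18.3-fold lower. BAR1, the protease that degrades α-factor, went the other way, at 12.1, 11.1, 17.6 and 18.8 TPM in S and 0.226, 0.259, 0.0593 and 0.502 TPM in bypass (61.5-fold higher), with 0.435 ± 0.080 TPM in wild-type G1. The study's methods name both BAR1 and bar1 deleted cells, without saying there which strain is which, and the part of genotype in this difference was not tested. Of the 4 genes specific to α cells, 2 were tested and both were lower in S: SAG1, α-agglutinin, at 14.2 to 15.4 TPM against 25.2 to 26.5 TPM, and STE3, the receptor for a-factor, at 1.34 to 1.72 TPM against 4.12 to 6.05 TPM. SPO11, the nuclease of meiotic breaks, was 32.2-fold lower in S, at 1.66 to 2.77 TPM against 73.9 to 79.2 TPM and 110 ± 17.4 TPM in wild-type G1. Of the other meiosis genes tested 8 were lower and 1 was higher, and no list member but SPO11 was beyond a log2 fold change of 2.

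**Figure D3:**
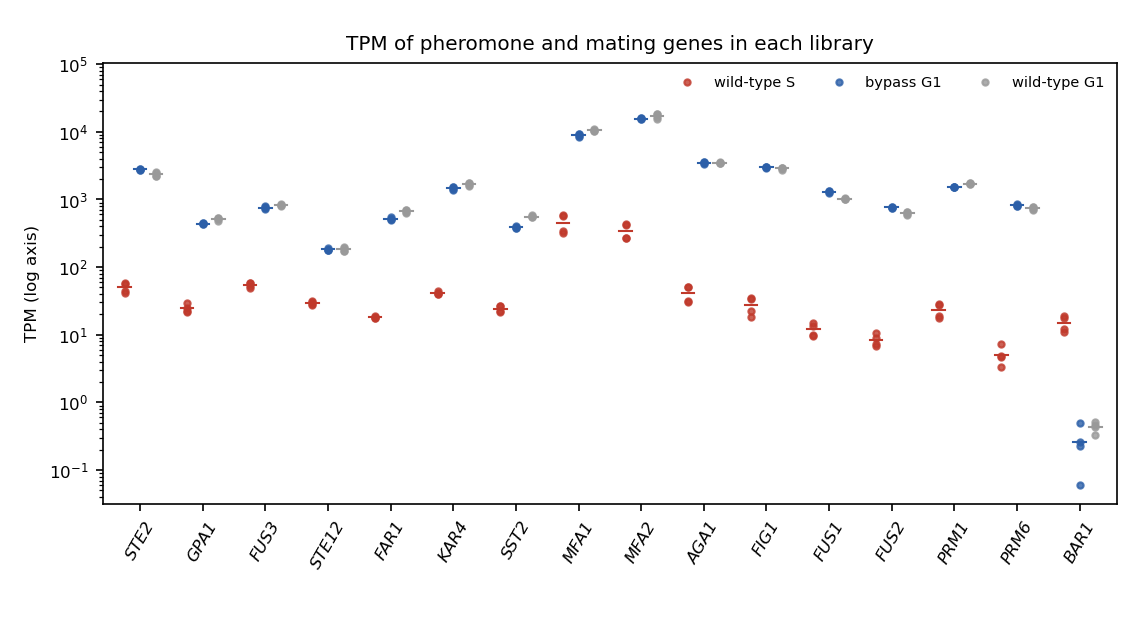
TPM (log axis) of pheromone pathway, a-specific and mating genes in each library, colours as in the plot of histone and cyclin genes, with a line for the mean of 4. All genes but BAR1 lie far lower in S than in both arrested groups, FUS1 for example at 9.70 to 15.1 TPM against 1265 to 1338 TPM in bypass.

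The printed motifs were counted over 5586 promoters of 250 bases on both strands. An MCB stood in 3.44% of all promoters, in 9.60% of the 521 at least 2-fold higher in S and in 2.20% of the 773 at least 2-fold lower. For SCB, the SBF box searched as CNCGAAA, the shares were 13.5%, 23.0% and 11.9%, and 34.2% for genes at least 4-fold higher. A PRE stood in 5.89% of all promoters, in 9.70% of those at least 2-fold lower and in 16 of the 37 beyond a log2 fold change of -4 (43.2%). By list, MCB was present in 8 of 11 polymerase promoters, 14 of 24 fork factor promoters and 7 of 12 cohesin promoters. It was in none of the 8 canonical histone promoters. PRE was present in 11 of 19 mating promoters and in 8 of 12 promoters of the list of a-factor production and a-specific genes. A match is a stretch of letters, and binding was not measured.

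**Figure D4:**
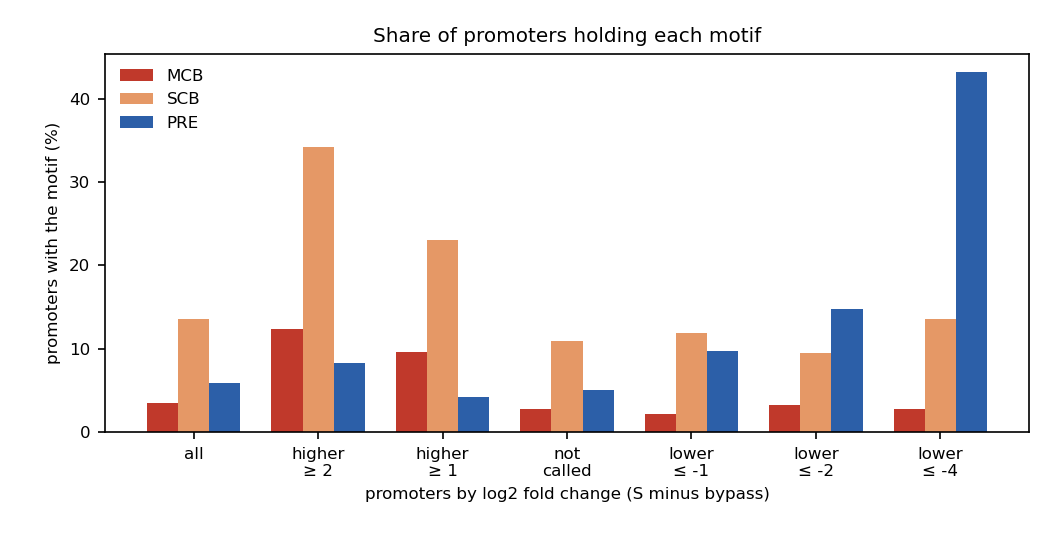
Share of promoters (percent, bars from 0) that hold an MCB (red), an SCB (orange) or a PRE (blue), for all promoters and for groups of genes by log2 fold change (S minus bypass). MCB and SCB shares are highest in the genes at least 4-fold higher in S (12.3% and 34.2%), and the PRE share is highest in the genes beyond -4 (43.2%).

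Protein synthesis and breakdown differed as blocks of genes with small folds. All 138 cytosolic ribosomal protein genes were higher in S, 86 of them at least 2-fold, with a median log2 fold change of 1.08 (0.94 with spike-in scaling). They ranged from 1.89 for RPS21A, which measured 1071 to 1158 TPM in S and 328 to 344 TPM in bypass, to 0.34 for RPL15B. Near-identical paralogues can share reads, so single members are less certain than the block. Mitochondrial ribosomal proteins were higher in 64 of 69 genes, with a median of 0.83. Ribosome biogenesis factors were higher in 65 of 79 genes and lower in 1, with a median of 0.56 (53 higher with spike-in scaling). NOP13, a nucleolar protein, was at 1.49 and GAR1, of the pseudouridylation complex, at 1.09. Their promoters held the PAC letters GATGAG in 71 of 79 cases against 17.5% of all promoters. The proteasome was lower in all 33 genes, with a median of -0.97 and 14 genes at least 2-fold lower. RPT2, an ATPase of the regulatory particle, measured 119.9 to 127 TPM in S and 407 to 414 TPM in bypass (2.97-fold), and RPN4, the transcription factor of proteasome genes, 71.1 to 78.3 TPM against 238 to 277 TPM (3.11-fold). For the proteasome the bypass level was above that of wild-type G1, with a list median of 0.23. Of the 138 cytosolic ribosomal protein genes 85 were lower in bypass than in wild-type G1 and 0 higher. Of all features 54.5% passed the threshold in that comparison.

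**Figure D5:**
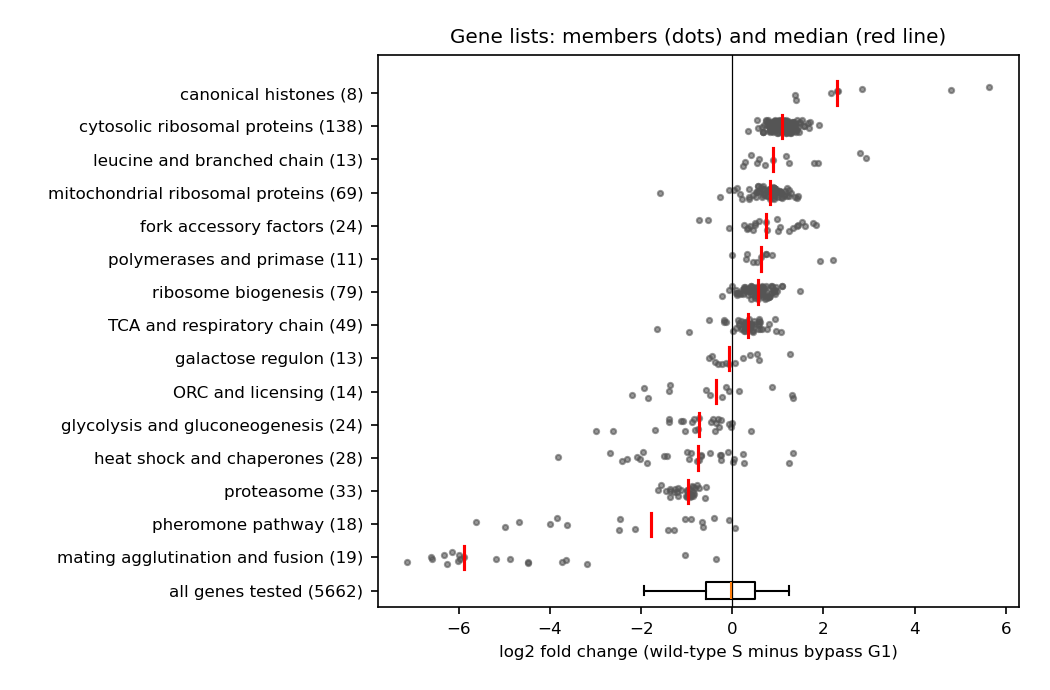
Log2 fold change (wild-type S minus bypass G1) of the members of 15 gene lists (dots) with the list median (red line), and of all 5662 features tested (box from quartile to quartile, whiskers at the 5th and 95th percentile). Medians run from -5.89 for mating genes through -0.97 for the proteasome to 1.08 for cytosolic ribosomal proteins and 2.30 for histones.

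Heat shock proteins and chaperones were lower in 21 of 28 genes and higher in 4. HSP26, a small heat shock protein, measured 10.2 to 12.6 TPM in S and 171 to 204 TPM in bypass (14.2-fold lower), and SSA4, an inducible Hsp70, 21.8 to 28.3 TPM against 124 to 154 TPM (4.98-fold lower). SSB1 and SSB2, the Hsp70 proteins of the ribosome, were 2.52-fold and 2.38-fold higher. Glycolysis and gluconeogenesis were lower in 18 of 24 genes and higher in 1, with a median of -0.74. ENO1, an enolase, measured 213 to 235 TPM in S and 1966 to 2028 TPM in bypass (7.95-fold), and TYE7, an activator of glycolytic genes, 31.4 to 41.4 TPM against 243 to 267 TPM (6.14-fold). The TCA cycle and respiratory chain were higher in 41 of 49 genes, with a median of only 0.35 and 26 genes higher with spike-in scaling. CYC1, cytochrome c, was 1.93-fold higher. Reserve genes were lower in 11 of 18, with NTH1, neutral trehalase, 5.28-fold lower.

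Amino acid and nutrient genes differed by pathway. All 13 leucine and branched-chain genes were higher in S, and 6 of them at least 2-fold. OAC1, the mitochondrial carrier for a leucine precursor, measured 513, 528, 576 and 559.7 TPM in S and 74.9, 84.2, 80.1 and 77.1 TPM in bypass (7.70-fold), and LEU1, of leucine synthesis, 1063 to 1128 TPM against 167 to 180.3 TPM (7.02-fold). BAT1, the mitochondrial transaminase, was 3.46-fold higher. In bypass OAC1, LEU1 and BAT1 were also below wild-type G1, by log2 fold changes of -2.25, -2.09 and -1.54, and LEU2, a strain marker of this pathway, measured 97.2 to 108 TPM in bypass and 131 to 139.6 TPM in S. Methionine and sulfate genes were higher in 20 of 25, for example SAM3, a transporter of S-adenosylmethionine, 3.51-fold. Of 14 arginine genes 9 were lower, among them ARG3 (5.25-fold), and 5 higher. IMD2, an IMP dehydrogenase of GMP synthesis, measured 566, 588, 815 and 832 TPM in S and 37.5 to 49.8 TPM in bypass (18.0-fold), with 10.8 ± 2.34 TPM in wild-type G1.

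Phosphate genes were higher in 13 of 18. PHO84, the high-affinity phosphate transporter, measured 1385, 1421, 1136 and 1019 TPM in S and 124, 129, 98.4 and 98.3 TPM in bypass (12.4-fold, log2 fold change 3.63 ± 0.61), and SPL2, a regulator of phosphate transport, 53.3 to 85.8 TPM against 5.85 to 8.42 TPM (10.7-fold). The SE of PHO84 is large, and the wild-type G1 libraries of the same fit spread widely (233 ± 208 TPM). Iron genes were higher in 9 of 22 and lower in 6, where 41.5% of all features were higher and 43.6% lower. FIT3, a wall protein of iron uptake, measured 159.8 to 166 TPM in S and 57.1 to 66.9 TPM in bypass (2.96-fold), while HMX1, heme oxygenase, was 5.08-fold lower. Among lipid genes 21 of 33 were lower and 8 higher, with ERG24, of ergosterol synthesis, 4.78-fold lower and ELO3, a fatty acid elongase, 3.94-fold higher.

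Genes in which bypass alone stood apart were sought with a narrow rule. Of the 1332 features that differed by at least 2-fold, 26 also differed between bypass and wild-type G1 (54.5% of all features did) without passing the threshold between S and wild-type G1 (83.8% did), 9 of them higher in S than in bypass and 17 lower. Passing in one comparison and not in the other is no test of a difference between them, and the comparisons with wild-type G1 share its libraries. The rule drops any gene that passed between S and wild-type G1, however small its change, so its count does not measure how many genes set bypass apart. SLD2, DPB11, DBF4 and HIS3 were dropped. Their log2 fold changes were 6.57, 5.71, 3.16 and 3.14 between bypass and wild-type G1, and 0.65, 0.22, 0.37 and -0.40 between S and wild-type G1. PGU1, an endopolygalacturonase of pectin breakdown, measured 0.961, 0.540, 1.61 and 1.25 TPM in S, 89.6, 88.4, 106 and 106 TPM in bypass and 1.69 ± 0.685 TPM in wild-type G1 (77.3-fold lower in S than in bypass). Its bypass libraries thus stood far from both wild-type groups. The uncharacterised genes YPL261C and YGL138C were near the detection limit in S, with 0, 3, 2 and 1 counts and 2, 1, 1 and 0 counts, against 19 to 27 and 12 to 22 counts in bypass. The small nucleolar RNA genes snR41 and snR70, neighbours on chromosome 16, were 3.76-fold and 3.39-fold lower in S. The genes higher in S included FIT3, FRE5 and SIT1 of iron uptake, MET2 of methionine synthesis and PHO89, a phosphate transporter, at folds of 2.34 to 2.96. Their wild-type G1 libraries spread widely (163 ± 120 TPM for FIT3). For FIT3 wild-type G1 replicates 1 to 4 measured 267, 267, 60.1 and 58.6 TPM, against 57.1 to 66.9 TPM in bypass. For SIT1 they measured 138, 148, 31.5 and 29.0 TPM, against 28.3 to 34.5 TPM. Wild-type G1 replicates 3 and 4 thus lay in the bypass range, and bypass did not stand apart from them in these genes.

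Selection markers, tRNA genes and genes beside repeats also differed. HIS3, a histidine gene used as a marker, measured 28.3 to 32.6 TPM in S, 391 to 408 TPM in bypass and 45.5 ± 2.33 TPM in wild-type G1 (11.6-fold lower in S). TRP1, another marker, was 1.46-fold lower in S, and URA3 had a log2 fold change of 0.05. SUP53, a leucine tRNA gene, had no count in any S library and 214 to 249.5 TPM in bypass, at least 78.6-fold lower in S against a floor of 3 counts per library, and 0.876 ± 1.25 TPM in wild-type G1. It lies from base 90859 to 90972 of chromosome 3, next to LEU2, which starts at base 91324. The genes YCL075W and YCL074W, 697 and 323 bases from a Ty5 long terminal repeat near the left end of chromosome 3, measured 0.71 to 2.66 and 1.91 to 3.41 TPM in S against 300.2 to 329.6 and 457 to 473 TPM in bypass (174-fold and 147-fold lower), with 122 ± 23.7 and 184 ± 29.2 TPM in wild-type G1. The tRNA gene features tG(GCC)G1, tA(AGC)P and tR(ACG)L were 144-fold, 84.7-fold and 83.3-fold lower in S, and for tG(GCC)G1 the S libraries held 3, 3, 4 and 2 counts against 459 to 510 in bypass. Mature tRNA carries no poly(A) tail, and which transcripts gave these reads was not tested. A Ty3 repeat lay within 1 kb of 0.958% of all genes tested with a position, of 3.98% of the 251 at least 4-fold lower in S and of 3.95% of the 76 at least 4-fold higher.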

How the data were processed

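The 12 libraries held poly(A)-selected mRNA of budding yeast with ERCC spike-ins, read as 42-base pairs. The authors aligned the reads with STAR 2.7.10a to sacCer3 and counted reads per feature on the reverse strand with HTSeq 2.0.1, per the submitters' processing notes and methods, and the deposited values are raw counts, not normalised. Gene rows gave library sizes, while spike-ins and unassigned reads were left out. Of 6412 features, 191 had no counts. Groups came from the sample labels.

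Counts were tested with edgeR 4.0.16 in R 4.3.3 (quasi-likelihood test, TMM, minimum count 10, all 12 libraries in 3 groups, Benjamini-Hochberg adjusted p below 0.1 over 5662 features). All adjusted p-values in the text are edgeR's. TPM was computed from the counts and annotated lengths, and 6177 of 6412 features matched the R64 annotation by name. The summed histone TPM was tested by an exact permutation test of 4 against 4 libraries. On simulated counts for this comparison (5642 genes, 200 changed) the test recovered 87 of 88 genes changed by 0.5 and 112 of 112 changed by 1 on the log2 scale, and called 33 unchanged genes. The simulation gave all genes the same dispersion, held no replicate pairs and changed only well counted genes. It also changed far fewer genes than the 85.1% called here, so its rates do not carry over to these data.

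The gene lists and the naming rule were chosen with earlier results of these data known. The rule covered the histones and induced genes, the 12 largest rises and falls, the members of each list with the largest changes (all members of lists of up to 20 genes), the largest of the genes called between bypass and wild-type G1 but not between S and wild-type G1, and genes the study names. The text names a selection of these, made after their values were seen. POL30 and RPL15B fall outside the rule and were chosen likewise. Alternatives were RLE, library totals, spike-in totals, DESeq2 1.42.0, other filters, an adjusted p below 0.05, edgeR's threshold test at a log2 size of 1, S and bypass libraries alone, summed replicate pairs, a replicate block and leaving out each library. 1 gene of the homologous recombination list is not reported here.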

Additional observations from a re-analysis of the deposited data

Results flagged for a closer look

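In 13 of 289 gene and group sets of 4 libraries, 1 library stood apart from the other 3 (a gap above Dixon's critical value), where about 14.45 such sets come by chance. In bypass, replicate 3 was high for HTB1 (1235 TPM against 1180 to 1186 in the others) and HTB2 (78.96 against 62.19 to 64.9). Bypass replicate 1 was low for CLB1 (1.196 against 1.772 to 1.846) and RNH201 (19.51 against 22.95 to 23.32). Bypass replicate 2 was high for FRE5 (1.914 against 1.385 to 1.415) and low for MBP1 (36.73 against 39 to 39.14) and PRI1 (52.93 against 54.84 to 55.15), and replicate 4 was low for PDS5 (12.1 against 13.09 to 13.17). In S, replicate 1 was low for SPT10 (17.37 against 20.84 to 21.41), replicate 2 was low for HSP26 (10.19 against 12.3 to 12.59) and high for LEU2 (139.6 against 130.6 to 130.9), replicate 3 was high for ERG24 (127.9 against 118.3 to 119.4) and replicate 4 was low for FIT3 (159.8 against 165 to 165.8).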

How the results depend on the processing

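Features past the threshold numbered 4508 with spike-in scaling, 4814 with RLE, 4838 with library totals, 4850 with DESeq2, 4418 with replicate pairs summed and 4717 to 4764 when 1 library was left out. Testing for a size above 1 on the log2 scale called 1000 features, 360 higher and 640 lower in S, since it asks for more than a difference from 0. Spike-in scaling moved the median over all features from -0.02 to -0.16, with 1814 higher and 2694 lower. The histone difference of 2.15 was 2.30 as the median of the 8 genes and 2.139 to 2.154 when 1 library was left out. With the replicate block it was 2.15 with an exact p of 0.125, the smallest 4 pairs allow, and 4834 features passed. The replicate numbers did not pair the libraries (correlations of same-numbered deviations -0.020 to 0.027). Signs turned only for genes that did not pass the threshold: with spike-in and library totals MBP1 was at -0.11 and -0.023, STE20 at -0.089 and -0.00463 and URA3 at -0.089 and -0.00410. With DESeq2 and RLE PRI1 was at 0.0099 and 0.0045 and SWI6 at 0.012 and 0.00771, and SWI6 was at 0.00013 with S and bypass libraries only. When 1 library was left out PRI1 ran from -0.070 to 0.042 and SWI6 from -0.021 to 0.012. GAL1 (-0.13, adjusted p = 0.0686) lost its call in 7 of the 8 fits without 1 library, in which edgeR's adjusted p was 0.108 to 0.149, and also with RLE (0.111), the replicate block (0.117) and replicate pairs summed (0.463). RNR3 lost its call without bypass replicate 3 (adjusted p = 0.109) and with replicate pairs summed (0.188). RNR2 and RPL15B lost theirs with spike-in scaling (adjusted p = 0.163 and 0.121), and FRE5 and SIT1 also lost theirs with replicate pairs summed (adjusted p = 0.114 and 0.112). STE7 and SLD3 passed it with spike-in scaling (adjusted p = 0.0576 and 0.093), and STE7 also with library totals (0.0849). Depth limits what can be said of genes with few counts in S, such as YPL261C and YGL138C.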
